A study of Mus musculus with 6 samples.

Results

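Shared COUP-TFII peaks at single gene ends are the places where chromatin immunoprecipitation followed by sequencing (ChIP-seq) gave a COUP-TFII peak in both XX and XY fetal mesonephroi, close to 1 end of 1 protein-coding gene. A peak was taken when it lay on an autosome of the XX list, had at least 1 bp in common with a peak of the XY list, and had its centre within 1 kb of the start or end coordinate of exactly 1 protein-coding gene (mm10, RefSeq). There were 3740 such peaks at 3601 genes, which were 33.5% of the 11175 peaks of the XX list (95% exact interval 32.6 to 34.4) and 51% of the 7340 shared autosomal peaks. Of the other shared autosomal peaks, 2795 had no protein-coding gene end within 1 kb, 789 had 2 genes and 16 had 3. Because the members were chosen by the measured peak positions of both lists and by the distance to a gene end, these counts and the overlap itself are descriptions.

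The ChIP samples were 2 of XX and 2 of XY mesonephroi, each from pools of CD-1 mouse embryos at stage E14.5, and 2 samples were pooled input. The labels give no genetic change or treatment for any group. The authors deposited 1 peak list per sex over its 2 replicates, with 11175 peaks for XX and 9846 for XY, and each peak is 300 bp wide and carries no height. No value below therefore has a spread between replicates, the depth behind each list is unknown, and intervals cover counting error only. The shared peaks were compared with 1004 XX-only and 1122 XY-only peaks that met the same position rule. These tests compare classes of peaks within the lists, not the sexes, and a peak missing from 1 list may lie below the authors' threshold.

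COUP-TFII, the product of Nr2f2, belongs to the orphan nuclear receptors and is made in mesenchymal cells. The mesonephros lies beside the fetal gonad and holds the Wolffian and Müllerian ducts, from which the male and female reproductive tracts form, and COUP-TFII in its mesenchyme is known to be needed for the loss of the Wolffian duct in female embryos. Nuclear receptors of this family bind DNA as dimers at pairs of the element AGGTCA, called a half-site, and the direct repeat with 1 base between the copies (DR1) is a well-known target.

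The following stretches show half-sites near peak centres, since the half-site was densest at the peak centre and more frequent in shared than in XY-only windows. RefSeq promoter sequences (GRCm38.p6, the assembly of mm10) are printed in the direction of transcription, upstream of the gene only, with the half-site or DR1 in capitals. TGACCT is AGGTCA read on the other strand. The first pair are the only ones with a DR1 among the 1815 shared peaks centred within 250 bp of a listed start. The other 10 are those centred closest to a listed start whose half-site lay upstream of the whole gene and within 50 bp of the XX peak centre, conditions set after the values had been seen.
Ranbp17: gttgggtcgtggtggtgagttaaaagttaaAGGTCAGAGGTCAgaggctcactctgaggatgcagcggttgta
Isca1: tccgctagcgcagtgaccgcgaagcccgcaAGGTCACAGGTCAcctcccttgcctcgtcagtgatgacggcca
Inpp1: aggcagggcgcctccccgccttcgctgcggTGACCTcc
Slain2: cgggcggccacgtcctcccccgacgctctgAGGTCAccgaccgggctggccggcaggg
Gfm1: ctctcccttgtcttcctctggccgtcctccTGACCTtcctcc
Pik3r4: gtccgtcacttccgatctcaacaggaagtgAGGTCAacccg
Kat7: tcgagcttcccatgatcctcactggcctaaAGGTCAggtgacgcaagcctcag
Fam13a: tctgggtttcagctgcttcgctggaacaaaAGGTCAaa
Pigc: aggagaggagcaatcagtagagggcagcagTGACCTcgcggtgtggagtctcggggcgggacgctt
Taok3: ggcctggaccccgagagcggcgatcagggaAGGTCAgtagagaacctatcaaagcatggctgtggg
Clec2d: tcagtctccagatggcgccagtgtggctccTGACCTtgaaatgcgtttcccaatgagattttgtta
Ube2j2: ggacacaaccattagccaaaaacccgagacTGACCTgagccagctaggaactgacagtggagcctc

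The DR1 of Ranbp17, a gene of the exportin family of nuclear transport receptors, lay within chr11:33513842-33513914. The gene is on the reverse strand, and strands named here are those of the genes, on which the stretches are printed. The middle of the repeat was 28.5 bp downstream of the XX peak centre, and the XX and XY centres were at -154 and -160 bp from the listed start. At Isca1, which takes part in iron-sulfur cluster assembly, the DR1 lay within chr13:59769881-59769953 on the reverse strand, also 28.5 bp downstream of the XX centre, and the centres were at -156 bp (XX) and -128 bp (XY). Both genes thus had a complete repeat under the inner part of the peak in either list. The half-site of Inpp1, an inositol phosphatase gene, lay 1 bp from the XX centre (chr1:52817689-52817726, reverse strand), with XX and XY centres at -6.5 and -14.5 bp.

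The half-sites of Slain2, a microtubule plus-end factor, and Gfm1, a mitochondrial elongation factor, lay -40 and -27 bp from the XX centre (chr5:72914304-72914361 and chr3:67430073-67430114, forward strand). Those of Pik3r4, a regulatory subunit of the class III PI3-kinase, and Kat7, a histone acetyltransferase, lay at -26 and -42 bp (chr9:105642954-105642994, forward, and chr11:95310247-95310299, reverse). Fam13a had its half-site at -38 bp (chr6:59024503-59024540, reverse), and Pigc, of glycosylphosphatidylinositol anchor synthesis, at -17 bp (chr1:161969083-161969148, forward). The kinase gene Taok3 had it at -11 bp (chr5:117120017-117120082, forward), the lectin gene Clec2d at -41 bp (chr6:129180471-129180536, forward), and Ube2j2, a ubiquitin-conjugating enzyme of the endoplasmic reticulum, at -13 bp (chr4:155943695-155943760, forward). Negative positions are upstream of the XX centre in the direction of transcription. In Ube2j2 the XX and XY centres were 3 bp apart, while at Kat7 they were at 21.5 and 83.5 bp from the listed start. Of the 817 shared peaks that covered at least 150 bp of the window, 177 had a half-site in it, and those centred nearest to the listed start were at Bnip1, Frmd5, Zfp280b, Kidins220, Ift172, Inpp1, Mapre1, Chchd5, Eif2b2 and Mfsd1, at 0.5 to 9.5 bp from it. The XX and XY centres at Zfp280b and Inpp1 were 3 and 8 bp apart, against 85 bp at Eif2b2.

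Half-sites gathered at the centres of shared peaks. Within 50 bp of the XX centre there were 1.44 AGGTCA sites per 1000 scanned positions (exact Poisson interval 1.19 to 1.73, 114 sites), and at 50 to 100 bp there were 0.837 (0.655 to 1.05). Farther out the rate was 0.396 at 100 to 150 bp, 0.311 (0.235 to 0.405) at 150 to 250 bp and 0.339 at 250 to 400 bp. In XX-only peaks the first 4 rates were 0.946, 0.961, 0.349 and 0.235, and in XY-only peaks 0.437, 0.247, 0.397 and 0.305. Measured from the XY centres of the shared peaks, the 5 rates were 1.37, 0.775, 0.471, 0.326 and 0.343. The scan covered the 300 bases from 250 before to 50 after each listed gene start, for the 2992 members with such a window. At the same places of the windows, 12847 windows of genes with no peak centre within 1 kb of either end held between 0.573 and 0.602 sites per 1000 positions, and the 3904 of them that were CpG-rich held between 0.217 and 0.289.

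The variant half-site GGGTCA had the same form over a wider span, with 1.42 sites per 1000 positions (1.17 to 1.7) within 50 bp of the XX centre, 1.28 at 50 to 100 bp, 0.868 at 100 to 150 bp and 0.391 (0.304 to 0.494) at 150 to 250 bp. The GC box GGGCGG, bound by Sp and Klf factors and common in CpG-rich promoters, ran the other way. It had 4.39 sites per 1000 positions (3.94 to 4.87) within 50 bp of the XX centre and 7.25 (6.86 to 7.66) at 150 to 250 bp, where CpG-rich windows without a peak held 6.35 and 7.02. The ETS motif CCGGAAG had 1.24 sites per 1000 positions (1.01 to 1.51) within 50 bp and 1.54 (1.3 to 1.82) at 100 to 150 bp, with overlapping intervals. CpG-rich windows with no peak held 0.631 and 0.74 at these places. Farther out the ETS rate in shared peaks fell to 0.919 at 150 to 250 bp and 0.614 at 250 to 400 bp. The CCAAT box, bound by NF-Y, had 1.76 sites per 1000 positions within 50 bp and 2.84 at 150 to 250 bp. The E-box CACGTG and the YY1 core ATGGCGGC were also denser within 150 bp of shared centres than farther out. The E-box had 0.771, 0.814 and 0.802 sites per 1000 positions in the inner 3 distance classes and 0.441 and 0.286 in the outer ones, against 0.376 to 0.431 in CpG-rich windows with no peak. The YY1 core had 0.357, 0.504 and 0.343, then 0.182 and 0.137, against 0.136 to 0.193. Part of this was also seen in XX-only peaks. From the centre outwards they had 1.23, 0.743, 0.349 and 0.211 for the variant and 0.851, 0.612, 0.567, 0.469 and 0.279 for the E-box. The GC box had 3.26 within 50 bp and 7.81 at 150 to 250 bp in XX-only peaks, and 4.1 and 6.92 in XY-only peaks. At these distances XY-only peaks had 0.656 and 0.467 for the variant, and XX-only peaks 0.143 and 0.212 for the YY1 core. These rates by distance were added after the data had been seen, and the distance classes were widened after a first look.

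**Figure D1:**
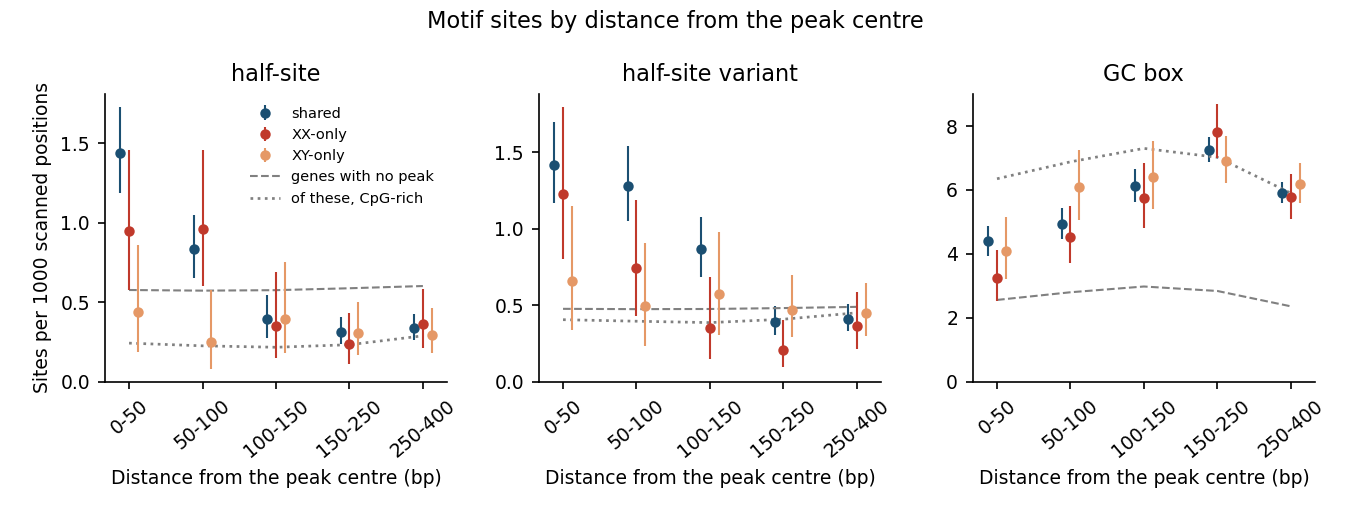
Sites per 1000 scanned positions (y axis) by distance from the peak centre in bp (x axis) for the half-site AGGTCA, its variant GGGTCA and the GC box, in shared (XX centres), XX-only and XY-only peaks; bars are exact 95% Poisson intervals. Dashed lines give the rate at the same places in windows of genes with no peak, and dotted lines the CpG-rich ones among these. The half-site falls to 0.311 per 1000 at 150 to 250 bp in shared peaks, against 1.44 at the centre, while the GC box is lowest at the centre.

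Among shared peaks whose promoter window held the whole 50 bp to either side of the centre, 14.1% (69 of 490) had an AGGTCA in that span, against 10.2% (14 of 137) of XX-only and 5.45% (6 of 110) of XY-only peaks. The odds ratio was 1.44 against XX-only peaks (two-sided Fisher's exact test, adjusted p = 0.466). Against XY-only peaks it was 2.84, with p = 0.0107 before and 0.0508 after adjustment over the 38 Fisher tests, and so missed the threshold of 0.05. With a span of 100 bp the odds ratios were 0.837 and 1.8. AGGTCA or GGGTCA was present in 26.1% of the shared, 22.6% of the XX-only and 11.8% of the XY-only spans. The test and span were chosen after the data had been seen. The XX and XY centres of the 69 shared peaks with the half-site lay a median of 23 bp apart (quartiles 9 and 47), and those of the 421 without it 35 bp (15 and 72).

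Over whole promoter windows, both half-sites and the ETS motif were more frequent in shared than in XY-only peaks. Here a window was used when a peak centre lay within 250 bp of the listed start, which gave 1815 windows for shared, 427 for XX-only and 486 for XY-only peaks. AGGTCA was found in 16.2% of the shared windows (294 of 1815), 62 of the 427 XX-only windows and 9.67% of the XY-only windows (47 of 486), and in 14.7% of all 20085 promoter windows. The odds ratio was 1.81 against XY-only peaks (Fisher's exact test, adjusted p = 0.00297) and 1.14 against XX-only peaks (adjusted p = 0.568). In CpG-rich windows alone the shares were 14.8% for shared, 10.3% for XX-only and 7.27% for XY-only peaks and 9.34% for all promoters.

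GGGTCA was found in 19.8% of shared windows, 14.1% of XX-only windows, 13.8% of XY-only windows and 13.9% of all windows. In Fisher's exact test its odds ratios were 1.51 against XX-only peaks (adjusted p = 0.0313) and 1.54 against XY-only peaks (adjusted p = 0.0155). Neither difference passed when only 1 strand was searched (adjusted p = 0.165 and 0.147) or when the peak had to cover at least 150 bp of the window (0.14 for both, Fisher's exact test). CCGGAAG was found in 25.6% of shared, 21.5% of XX-only, 18.7% of XY-only and 11.9% of all windows (26.8% of the shared and 20.2% of all windows among the CpG-rich ones), with an odds ratio of 1.5 against XY-only peaks (adjusted p = 0.0117) and 1.25 against XX-only peaks (adjusted p = 0.212, Fisher's exact test). In CpG-rich windows alone the ETS difference from XY-only peaks gave an adjusted p of 0.0506, and on 1 strand 0.181.

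The other 11 motifs did not pass the test against either class. A DR1 was found in 2 of the 1815 shared windows (0.11%), 2 of 427 XX-only and 0 of 486 XY-only windows (exact upper limit 0.756%), and in 0.0448% of all windows. The GC box was present in 71.1%, 70.5% and 70.2% of shared, XX-only and XY-only windows and in 47% of all windows, but among CpG-rich windows in 75.4% of the shared and 77% of all. The CCAAT box was present in 41.9%, 41% and 36.8%, and the E-box CACGTG, bound by basic helix-loop-helix factors, in 14%, 12.6% and 10.9%, of the same classes. The AP-1 motif TGANTCA was in 3.64%, 3.28% and 3.29% of them, against 7.06% of all windows, and TATAAA in 5.34%, 7.49% and 6.79%, against 12.7%. Among CpG-rich windows the AP-1 motif was in 3.6% of the shared and 3.26% of all, and TATAAA in 4.61% and 4.53%. The NRF1 core GCGCATGC, the YY1 core ATGGCGGC and the cyclic AMP element TGACGTCA were in 7.44%, 7% and 4.9% of shared windows. The TEAD motif GGAATG and the forkhead motif TGTTTAC were in 11% and 1.87% of shared windows. All were searched on both strands, and a half-site is counted inside each DR1 and can share 2 bases with an E-box.

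The mean share of G and C was close in the 3 classes, while CpG-rich windows were fewer in XX-only peaks. The mean share of G and C was 62% in shared windows (SD 7.34 over windows), 61.6% in XX-only and 62.1% in XY-only windows, and 56.5% over all windows. CpG-rich windows, with over 50% G and C and an observed to expected CpG ratio over 0.6, made up 82.5% of the shared, 75.2% of the XX-only, 82.1% of the XY-only and 46.2% of all windows.

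Nearly all shared peaks stood at the gene start. The strand of the gene was listed for 2992 members, and of these 2941 (98.3%, interval 97.8 to 98.7) were nearer to the start of transcription and 51 to the end. The share was 97.1% of XX-only peaks (odds ratio 1.7, adjusted p = 0.137) and 97.8% of XY-only peaks (odds ratio 1.3, adjusted p = 0.481, Fisher's exact test). With the limit raised to 2500 bp, the difference from XX-only peaks passed (odds ratio 2.38, adjusted p = 3.89e-05, Fisher's exact test). The centre was a median of 224 bp from the gene end it lay at in shared peaks, 244 bp in XX-only and 271 bp in XY-only peaks.

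Shared peaks were more often within 250 bp of the gene end than XY-only peaks, all 3 classes having been held to the same 1 kb limit. A centre within 250 bp was found for 54.8% of shared peaks (2051 of 3740), 50.9% of XX-only peaks and 47.3% of XY-only peaks, with odds ratios of 1.17 (adjusted p = 0.114) and 1.35 (adjusted p = 0.000406, Fisher's exact test). Within 100 bp the difference from XY-only peaks did not pass (odds ratio 1.16, adjusted p = 0.257, Fisher's exact test). Within 500 bp lay 81.5% of shared, 75.6% of XX-only and 77.2% of XY-only peaks.

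Most centres lay downstream of the gene start. Relative to the outer coordinate of the gene, the median position was 146 bp downstream in shared peaks (quartiles -30.5 and 346), 132 bp in XX-only and 194 bp in XY-only peaks. The centre was downstream of the start in 73.2% of shared (2152 of 2941), 66.3% of XX-only (516 of 778) and 79% of XY-only peaks (703 of 890). The shared peaks thus stood between the other classes, with odds ratios of 1.38 against XX-only peaks (adjusted p = 0.00297) and 0.726 against XY-only peaks (adjusted p = 0.00419) in a Fisher's exact test added after the data had been seen. Neither call held under every definition of a shared peak: with centres within 100 bp the adjusted p against XX-only peaks was 0.212, and with 50% of each peak in common that against XY-only peaks was 0.0658. Counting genes of all kinds, so that a noncoding gene end nearby also left a peak out, the difference from XX-only peaks gave an adjusted p of 0.099. Many genes have further starts inside, and from the nearest listed start the shared centres lay at a median of 87.5 bp downstream (quartiles -134 and 238), with odds ratios of 1.36 and 0.727.

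**Figure D2:**
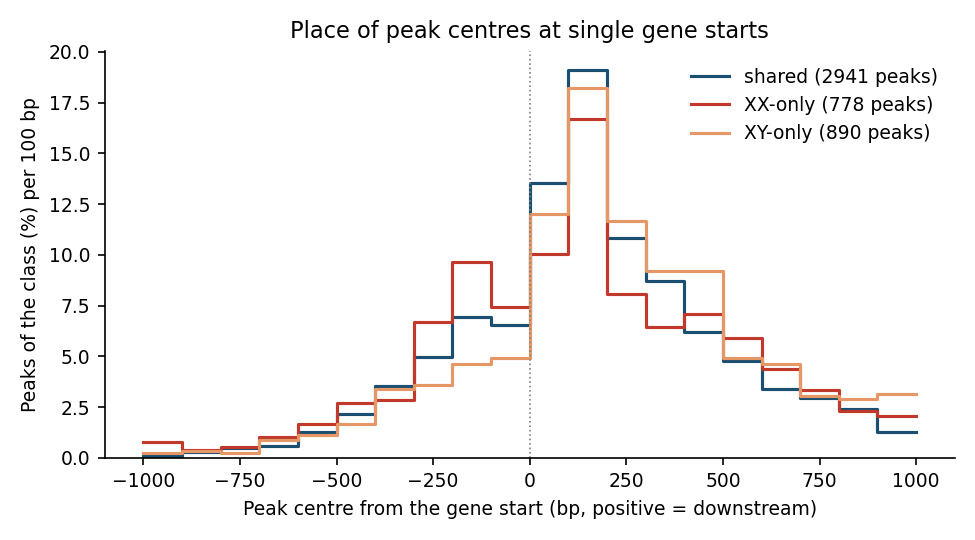
Place of the peak centre relative to the gene start in bp (x axis, positive downstream) as percent of the class per 100 bp (y axis), for 2941 shared, 778 XX-only and 890 XY-only peaks at gene starts. The highest bin is 100 to 200 bp downstream in all 3 classes, with 19.1% of shared, 16.7% of XX-only and 18.2% of XY-only peaks, and at 200 to 100 bp upstream the shares are 6.94%, 9.64% and 4.61%.

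A noncoding gene, which the choice of members did not use, ended within 1 kb of 17% of shared, 15.7% of XX-only and 16.4% of XY-only peaks (odds ratios 1.1 and 1.05, adjusted p = 0.481 and 0.796, Fisher's exact test). The median gene length was 27.5 kb for shared, 27.6 kb for XX-only and 29.1 kb for XY-only peaks, against 17.5 kb for all autosomal protein-coding genes.

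In all, 139 genes had 2 shared peaks and none had more. By the outer coordinate of the gene, the 2 peaks stood on opposite sides of the start in 96 of them and on the same side in 10. In 7 they stood at either end of the gene, and the strand of 26 was not listed. At Hes6, counted as astride, both centres were upstream of their nearest listed start, at -305.5 and -291.5 bp. The 2 centres at 1 start were a median of 781 bp apart, and at least 536 bp. Pairs astride the start had median positions of -292 and 531 bp. Notch2, which encodes a receptor of the Notch pathway, had centres at -249.5 and 346.5 bp. Cfl2, an actin-depolymerising factor, had centres at -191.5 and 399.5 bp. Polr3e, a subunit of RNA polymerase III, had them at -98.5 and 495.5 bp, Trim44 at -298.5 and 309.5 bp, and Fbxo34, an F-box gene, at -67.5 and 548.5 bp.

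**Figure D3:**
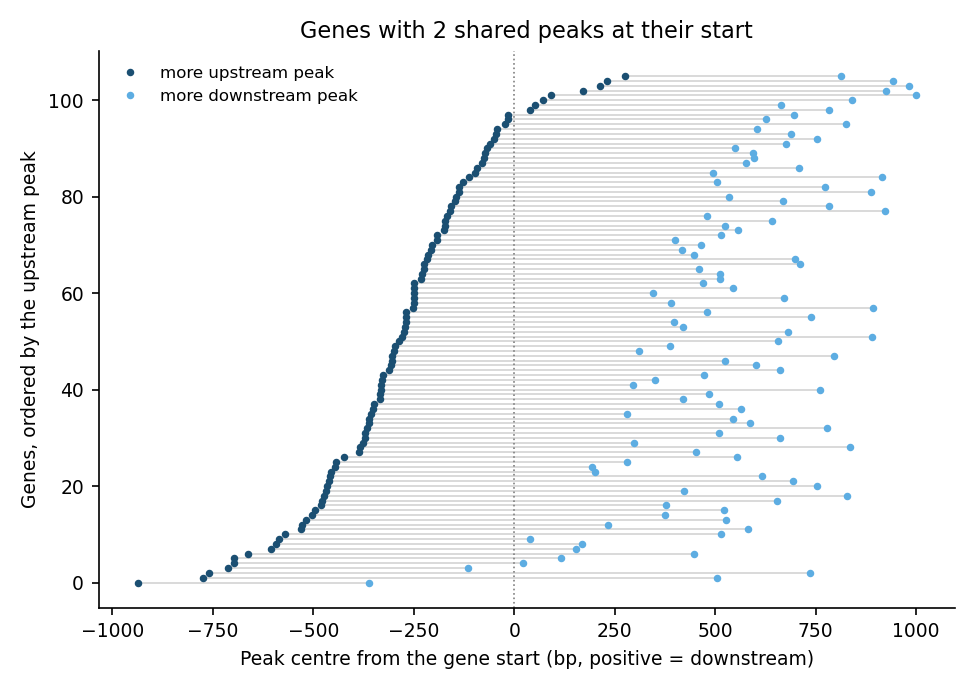
Centres of both shared peaks (x axis, bp from the gene start, positive downstream) at each gene with 2 shared peaks at its start, 1 line per gene ordered by the more upstream peak (y axis). By the outer coordinate of the gene, the pair stands astride the start in 96 genes, and no pair is closer than 536 bp.

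The 4 genes with a peak at either end among those named by rule were Cyp4f13, a cytochrome P450 gene, Ccdc105, Akap13, a kinase-anchoring protein gene, and Slc9a8, a sodium-proton exchanger gene. At Cyp4f13 the centre at the start was at -60.5 bp and that at the end 249.5 bp inside the gene, 22538 bp away. At Ccdc105 they were at -183.5 bp from the outer coordinate of the gene and 210.5 bp inside the end. The first was at -34918.5 bp from the nearest listed start of Ccdc105, and the second was near a listed start of Gm30400. At Akap13 the centres were at 143.5 bp from the start and 303.5 bp beyond the end. At Slc9a8 they were 50.5 bp downstream of the start and 418.5 bp inside the end.

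Of the 51 shared peaks at the end of transcription, 28 were at genes over 10 kb long and 28 were centred inside the gene. Another gene's listed start lay within 1 kb of 5 of them and a listed start of the same gene within 1 kb of 5 others, so that 41 (80.4%) had no listed start nearby. Besides those above, the nearest in long genes were at Hhipl1, 127.5 bp inside the end (chr12:108328023-108328322), Gm21814, 238.5 bp beyond it, and the zinc finger gene Zfp329, 282.5 bp beyond it and near a listed start of Zscan18. They were followed by the sterol transporter gene Abcg5 at 298.5 bp beyond, Tulp1 at 334.5 bp inside, the RNA polymerase III subunit gene Polr3gl at 382.5 bp beyond and the RNA exonuclease gene Usb1 at 386.5 bp inside. At Hhipl1, Gm21814 and Polr3gl the XX and XY centres lay 4, 2 and 6 bp apart, against 105 bp at Abcg5 and 116 bp at Zfp329.

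The XX and XY centres of a shared peak lay a median of 33.5 bp apart (quartiles 15 and 70), and 32 bp in the shared peaks with no gene end nearby. They were within 50 bp in 63.8% of members (2387 of 3740), within 100 bp in 85%, and equal in 33. The largest distance was 299 bp, the most that 1 shared base allows. At gene starts with centres that differed, the XX centre was upstream of the XY centre in 51.7% (1506 of 2915, interval 49.8 to 53.5). Polr2a, the gene of the largest RNA polymerase II subunit, and the mitochondrial ribosomal protein gene Mrpl11 had equal centres. They were at -13.5 and 49.5 bp from the outer coordinate of the gene start. From its nearest listed start the Mrpl11 centre was at -104.5 bp. The proteasome gene Psmd5 and the ribosomal protein gene Rpl34 had centres 296 and 285 bp apart, so that the peaks of the 2 lists barely touched.

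**Figure D4:**
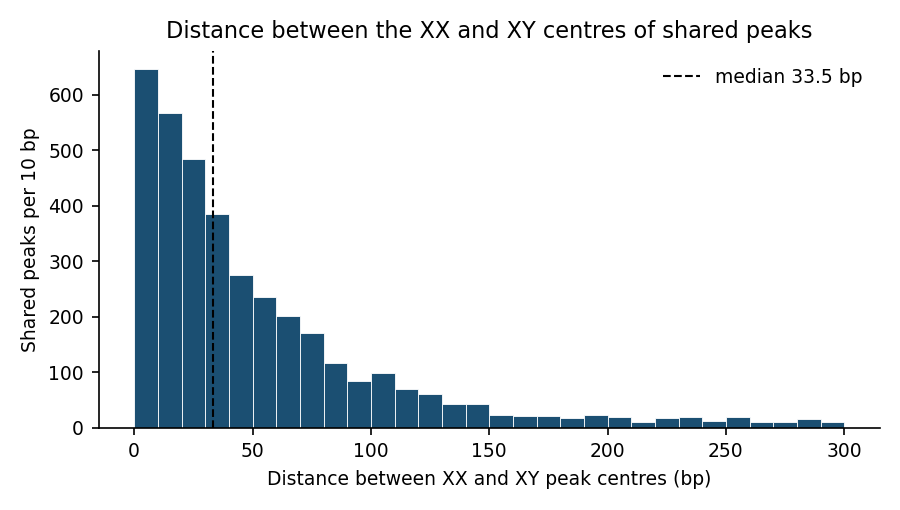
Number of shared peaks (y axis) by the distance between their XX and XY centres in bp (x axis, 10 bp bins). Peaks are 300 bp wide, so no distance can exceed 299 bp. The dashed line is the median of 33.5 bp.

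A shared peak stood at a single end of 17.4% of all 20665 autosomal protein-coding genes, with shares by chromosome between 11% on chromosome 7 and 23.7% on chromosome 18. Against this background the 31 gene lists ranged from 0% to 47.1%, and 22 were above it. The lists were made with earlier results of these data known, gene expression was not used, and no list was tested, so the counts are descriptions. A gene whose neighbour ends close by could not be counted, which touches some lists more than others.

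Genes of the basic machinery of the cell made up most of the lists above the background. A shared peak was found at 40 of 95 genes of the respiratory chain and ATP synthase (42.1%, interval 32 to 52.7), and 26 more had a shared peak only between close gene ends. Sdhb, a subunit of succinate dehydrogenase, had its centre 44.5 bp from the start, and the complex I assembly genes Ndufaf1, Ndufaf4 and Ndufaf6 had theirs at 34.5, 52.5 and 35.5 bp from the gene end. Of the mitochondrial ribosomal protein genes, 26 of 79 (32.9%) had a member and 26 more a shared peak between close ends. The member at Mrpl39 had its centre at -21.5 bp from the start. Mitochondrial import and carrier genes had 23 of 67 (34.3%), with Timm44 and Tomm70a, parts of the import machinery, at 32.5 and 43.5 bp. The centres in these 3 lists were a median of 179, 154 and 208 bp from the gene end, against 224 bp in all members. The median was above that in other lists of basic functions, with 312 bp for histone methylation, 268 bp for the cell cycle, 256 bp for splicing factors and ubiquitin enzymes and 250 bp for vesicle transport. Positions in the account of the lists are those of the XX centres, measured from the outer coordinate of the gene. Negative values are upstream of the start, and values for genes with no listed strand are distances without direction. From the nearest listed start some positions differ: -180.5 bp at Ezh2, -722.5 bp at Bmpr1a, -279.5 bp at Rora, and -942.5 and -175.5 bp at Nr2c2.

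Of the translation genes, ribosomal protein and translation factor genes were above the background, while the interval of tRNA synthetase genes held it. Cytosolic ribosomal protein genes had 31 of 79 (39.2%), with a median of 144 bp from the end and Rplp1 and Rpl3 at 8.5 and 24.5 bp. The XX and XY centres at Rplp1 lay 223 bp apart. Reads of ribosomal protein genes can be shared with near-identical copies elsewhere in the genome, and how the authors treated such reads is not given in the sources used here. Translation factor genes had 28 of 70 (40%), led by Eif2b2, Eif4e2 and Eif5 at -7.5, -10.5 and -23.5 bp from the start. Eif5 had a further member at 824.5 bp. The tRNA synthetase genes had 5 of 37 (13.5%, interval 4.54 to 28.8), and 7 more with a peak between close ends. With the limit at 2500 bp their share was 18.9%, against 18.3% of all autosomal protein-coding genes. The centre at Tars was 0.5 bp from the start.

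Genes of transcription, splicing and chromatin had shares of 35% for RNA polymerases, general factors and Mediator (35 of 100), 34.6% for splicing factors (27 of 78, and 22 more between close ends) and 39.2% for histone methylation (20 of 51). Ezh2, the methyltransferase of Polycomb complex 2, had its XX centre 59.5 bp from the start and its XY centre 5 bp away. Kdm1a, a histone demethylase, had members at -16.5 and 627.5 bp. Zinc finger genes named Zfp or Zbtb had 130 of 428 (30.4%, 26 to 35), and Zfp105 had its centre at -1.5 bp from the start. Cell cycle and replication genes had 37 of 109 (33.9%), with Anapc4 and Orc5 at -1.5 and 13.5 bp and Cdk7 at -30.5 bp. The XX and XY centres at Anapc4 were 284 bp apart.

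Vesicle transport genes had 66 of 189 (34.9%), led by Sec13 and Sec31b, genes of the COPII coat, which both had XX centres 16.5 bp from the start, while the XY centres lay 68 and 289 bp away from these. Ubiquitin enzymes had 44 of 169 (26%), proteasome subunits 13 of 50 (26%), chaperones 25 of 90 (27.8%), and autophagy and lysosomal acidification 12 of 42 (28.6%). DNA repair genes had 14 of 67 (20.9%). The intervals of the proteasome (14.6 to 40.3), autophagy (15.7 to 44.6) and DNA repair (11.9 to 32.6) lists hold the background of 17.4%.

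**Figure D5:**
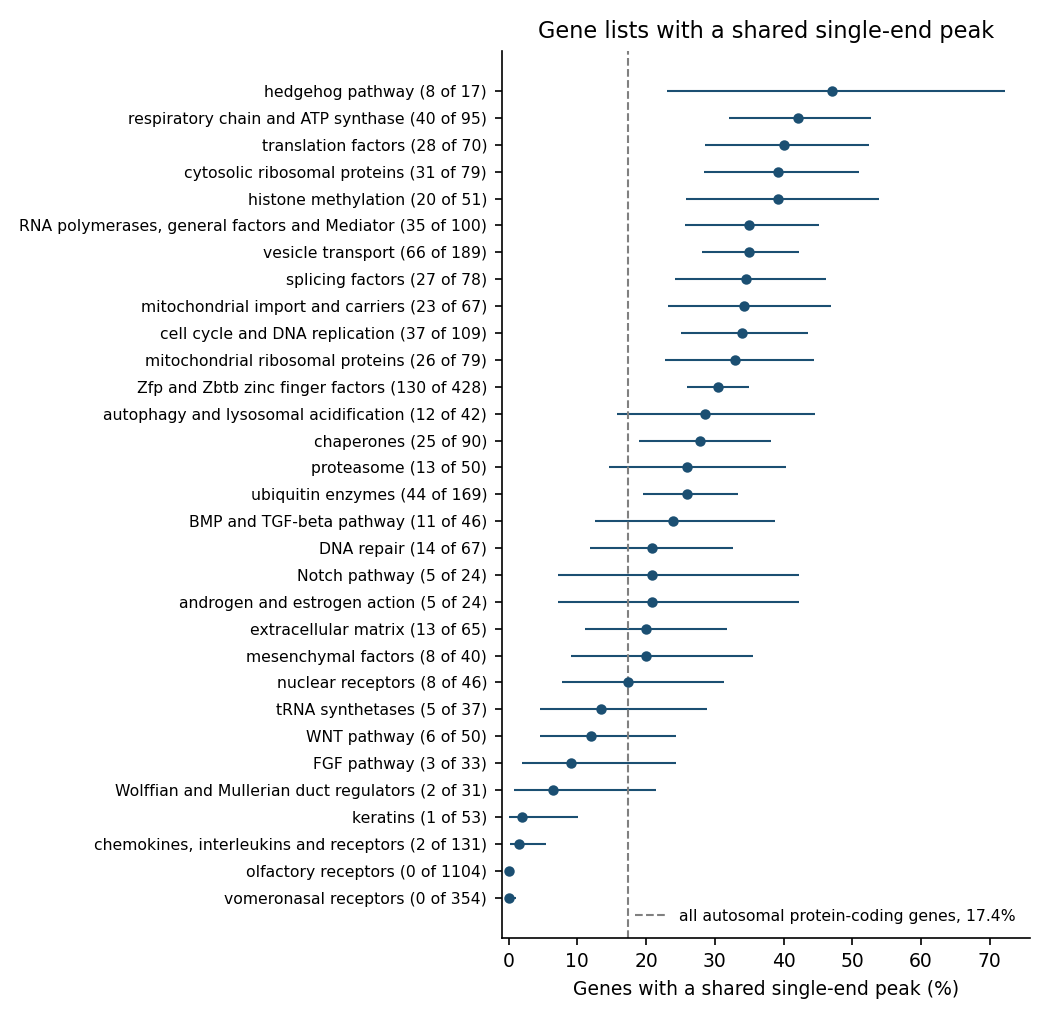
Percent of the genes of each list with a shared peak at a single end (x axis) with exact 95% binomial intervals, lists ordered by share (y axis, number of genes in brackets). The dashed line is the 17.4% of all autosomal protein-coding genes. Lists of basic cell functions lie mostly between 26% and 42.1%, and olfactory and vomeronasal receptors, keratins, and chemokines and interleukins lie near 0%.

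Lists of signalling pathways and of the reproductive tract had shares from 6.45% to 47.1%. Except for the hedgehog pathway, their intervals hold the background of 17.4%, so they are not set apart from it. The same holds for mesenchymal factors, nuclear receptors and extracellular matrix genes. The hedgehog pathway, which is known to induce Nr2f2 in several tissues, had 8 of 17 genes (47.1%), with a wide interval of 23 to 72.2. They included the co-receptor gene Boc, Disp1, needed for ligand release, and the inhibitor gene Sufu, with centres 337.5, 218.5 and 178.5 bp from the gene end. The BMP and TGF-beta pathway had 11 of 46 genes (23.9%), among them the ligand gene Bmp2 at 339.5 bp, the receptor gene Bmpr1a at 67.5 bp and the target gene Id1 at 168.5 bp. The Notch pathway had 5 of 24 (20.8%), with the inhibitor gene Numb at 60.5 bp and the target gene Hey2 at -115.5 bp. Hes6, also of this list, had 2 members, at -305.5 and 524.5 bp.

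The WNT pathway had 6 of 50 genes (12%), whose centres were a median of 664 bp from the gene end, and the FGF pathway had 3 of 33 (9.09%), all of them inhibitors: Spry1 at 366.5 bp, Spred1 at -537.5 bp and Spred2 at 734.5 bp from the start. Mesenchymal factors had 8 of 40 (20%), at a median of 538 bp, among them Snai1 at 76.5 bp, Foxd1 at 135.5 bp and Twist2 with members at -362.5 and 586.5 bp. Nuclear receptor genes had 8 of 46 (17.4%), at a median of 468 bp. Nr2c2, which encodes the orphan receptor TR4, had members at 72.5 and 839.5 bp, and Rora, Ppard and Nr1d2 had theirs at 102.5, 127.5 and 413.5 bp.

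Of the genes of androgen and estrogen action, 5 of 24 (20.8%) had a member. Among the nearest were Hsd17b12 and Srd5a3, of families named for steroid enzymes, at 155.5 and 246.5 bp. The coactivator gene Ncoa2 at 194.5 bp and the co-chaperone gene Fkbp5 at -168.5 bp were the others. Of the Wolffian and Müllerian duct regulators, 2 of 31 (6.45%, 0.791 to 21.4) had one. These were Emx2, a homeobox gene needed for both ducts, at 983.5 bp, and Spry1. Extracellular matrix genes had 13 of 65 (20%), with the collagen gene Col11a1 at 40.5 bp and the laminin gene Lama4 at 44.5 bp.

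Families of genes with tissue-restricted expression had few or no members. None was found at 1104 olfactory receptor genes (upper limit 0.334%) or 354 vomeronasal receptor genes (1.04%), 1 at 53 keratin genes (Krt10, 831.5 bp from the end of transcription), and 2 at 131 chemokine and interleukin genes and their receptors. These were Il6st, the shared signalling subunit of the interleukin-6 receptor family, at 61.5 bp, and Cxcl12, a chemokine made by mesenchymal cells, at 146.5 bp. The share of 5 lists changed sides of the background when the limit was 500 or 2500 bp: tRNA synthetases, mesenchymal factors, extracellular matrix, and the Notch and the BMP and TGF-beta pathways.

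Nr2f2 itself was not among the members, because its shared peak (chr7:70361552-70361851) lay 5.04 kb from the nearer end of the gene. At the limit of the rule, Ppp2r3d, Hp1bp3 and Cep120 were just inside, with centres 999.5, 998.5 and 997.5 bp from the gene end. Gnb1, Rrbp1 and Kcnh2 were just outside, at 1001.5, 1003.5 and 1004.5 bp.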

How the data were processed

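Each deposited list holds positions only (chromosome, start, end), which the authors made as 300 bp peaks, 1 list over both replicates of a sex. The submitters' processing notes list bedtools 2.24.0, Bowtie 1.2, HOMER 4.10.3, cutadapt and Picard with the mm10 build, but no step they served. The peak threshold and the way replicates were joined are not stated in the labels used. The labels' extraction text speaks of RUNX1 and fetal ovaries, whereas titles, tissue, antibody and design give COUP-TFII and mesonephroi, and grouping followed the titles. Input was not analysed here.

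Positions were counted from 1. Genes came from the RefSeq table for GRCm38.p6, with 20665 autosomal protein-coding genes. Strand and listed starts came from its promoter table, which covers 16457 of them. Results on start against end, on the side of the start and on motifs therefore leave out 748 members. Chromosome 18 held 125 of these, and 121 of its genes had a member. Distances to the gene end, noncoding gene ends, distances between XX and XY centres and the gene lists use all 3740 members. No genome was used, so motifs were searched in promoter windows and not in whole peaks. Peak classes were set against each other with Fisher's exact test (two-sided, sample odds ratios, scipy 1.17.1), adjusted by Benjamini-Hochberg over 38 tests, 4 of them added later; shares have exact (Clopper-Pearson) intervals. Peak classes, positions and the motif search were checked on simulated peaks and sequences with known answers. Further patterns looked at in exploration are not reported.

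The members, gene lists and motifs were chosen with earlier results of these data known. Genes named are those with 2 members nearest to a gene end (10), up to 4 of each list nearest to it, the 10 with a half-site and the nearest centres, 10 at ends of long genes, those at the 1 kb limit, and Nr2f2; some genes that the rule takes in are left out of the text, and the printed stretches and the examples of equal and distant centres were picked after values were seen. Alternatives were other definitions of a shared peak, XY positions, genes of all kinds, other distances, and other windows or strands for motifs.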

Additional observations from a re-analysis of the deposited data

How the results depend on the processing

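Of 140 alternative values, 111 were called unchanged. For odds ratios this meant the same direction and the same side of the threshold. Most of the 140 were counts, medians or means, which have no threshold and only had to stay close to the main value. The share of 111 is therefore no measure of how often a test kept its call. The number of shared single-end peaks stayed between 3103 (genes of all kinds) and 3966 (2500 bp limit). The median distance between XX and XY centres was 30 bp with 50% of each peak in common and 27 bp with centres within 100 bp, since those definitions leave out distant pairs. The odds ratio for lying at the gene start against XX-only peaks was 2.38 at 2500 bp, and that against XY-only peaks turned to 0.703 in genes over 10 kb long (adjusted p = 0.688, Fisher's exact test). For a centre within 250 bp of the end, the odds ratio against XX-only peaks was 1.18 and past the threshold with centres within 100 bp (adjusted p = 0.0304, Fisher's exact test), and that against XY-only peaks was 1.16 and not past it for a distance of 100 bp. For a centre downstream of the start, the odds ratio was 1.15 (centres within 100 bp) and 1.25 (genes of all kinds) against XX-only peaks, and 0.813 (50% in common) against XY-only peaks, none past the threshold. Of the motifs, 1 passed against XX-only and 3 against XY-only peaks. The counts were 0 and 2 with windows covered for 150 bp, 0 and 1 on 1 strand, and 0 and 2 in CpG-rich windows. A half-site within 100 bp of the centre gave an odds ratio of 0.837 against XX-only peaks. Except as said, the cause of these changes was not tested. No paired analysis was possible because each sex's replicates are joined in 1 list, and for the same reason no replicate could be left out. The lists carry no signal, so depth and the strength of single peaks are unknown.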
